A study of Mus musculus with 16 samples.

Results

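The interferon-induced transmembrane (Ifitm) genes Ifitm1, Ifitm2, Ifitm3 and Ifitm6 were followed through 8 groups of myeloid cells sorted from healing tendon graft tissue. They are all 4 of the genes asked for by name among the 20200 genes of the count table. All 4 passed the filter on low counts, which left 11998 genes for testing. They were chosen from the measured levels of Ifitm1 and Ifitm3, which go opposite ways over time or between populations. For that reason the levels and differences of Ifitm1 and Ifitm3 are given as a description with no test, while Ifitm2 and Ifitm6 were tested.

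The mice were wild-type C57BL/6 animals that had undergone anterior cruciate ligament reconstruction (ACLR), in which a tendon graft is fixed in a bone tunnel. Live, lineage-negative CD45+ CD11b+ cells of the interface tissue between graft and bone were sorted on day 1 and day 14 after surgery into 4 populations: Ly6G- F4/80+ CD9+ macrophages, Ly6G- F4/80+ CX3CR1+ macrophages, Ly6G- F4/80- myeloid cells and Ly6G+ neutrophils. Each group had 2 bulk RNA-seq libraries, 16 in all, and each library was made from the pooled cells of several mice, so the spread below is that between pools. The mice of the study were too few for a separate pool per library, so populations of a day shared pools. The main fit took all libraries as independent. Every group carried the surgery, and libraries of unoperated mice were not analysed here. Library totals ran from 10587857 to 19814119 counts on day 1 and from 9233952 to 12721779 on day 14.

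IFITM proteins are small membrane proteins that hinder the fusion of enveloped viruses with the cell. IFITM1 sits mainly at the cell surface, whereas IFITM2 and IFITM3 are drawn into endosomes and lysosomes by a sorting signal near their amino terminus. Type I and type II interferons induce several of these genes, and many myeloid cells also express them at rest. Ifitm6 is a rodent member of the family, known from leukocytes.

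The 4 genes lay in one cluster on chromosome 7 (mm10), read from the Gencode vM21 annotation. Ifitm2 (chr7:140954837-140955987), Ifitm3 (chr7:141009586-141010770) and Ifitm6 (chr7:141015699-141017924) are on the minus strand, and Ifitm1 (chr7:140967221-140969825) is on the plus strand. Together they spanned 63088 bases. Ifitm2 and Ifitm3 each had 1 annotated transcript, whereas Ifitm1 and Ifitm6 each had 3 transcripts with 3 different starts.

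The sequences around the start sites are shown as a description, and no link between them and the levels was tested. Each line gives 70 bases before to 30 after the RefSeq start (GRCm38.p6), 5′ to 3′ on the gene's own strand. Capitals mark matches to GAAANNGAA, the core of the element bound by interferon regulatory factors, or to TTCNNNGAA, the core bound by STAT dimers.
Ifitm1, chr7:140968006-140968105, plus strand: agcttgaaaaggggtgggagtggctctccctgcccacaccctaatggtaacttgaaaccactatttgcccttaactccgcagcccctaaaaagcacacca
Ifitm2, chr7:140955932-140956031, minus strand: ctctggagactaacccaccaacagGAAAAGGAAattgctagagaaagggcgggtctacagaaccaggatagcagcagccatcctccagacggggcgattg
Ifitm3, chr7:141010715-141010814, minus strand: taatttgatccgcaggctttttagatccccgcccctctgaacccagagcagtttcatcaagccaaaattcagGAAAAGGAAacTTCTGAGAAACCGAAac
Ifitm6, chr7:141016863-141016962, minus strand: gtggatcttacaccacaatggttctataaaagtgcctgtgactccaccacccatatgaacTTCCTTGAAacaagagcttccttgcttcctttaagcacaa

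Both motifs were searched on both strands in the full RefSeq window of 250 bases before to 50 after the start. The Ifitm3 window held 2 matches to GAAANNGAA and 1 to TTCNNNGAA, and the latter overlapped the second of the former. The Ifitm2 window held 1 match to GAAANNGAA with the same letters as the first match of Ifitm3, the Ifitm6 window held 1 match to TTCNNNGAA, and the Ifitm1 window held neither. Of all 32851 promoter windows, 8.56% held GAAANNGAA, 8.3% held TTCNNNGAA and 1.07% held both, so single matches are common and the pair in Ifitm3 is less so. The window of Ifitm1 covers 1 of its 3 annotated starts. These are matches of letters, and no binding was measured.

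Ifitm1 stood highest on day 1 and was lower on day 14 in every population. Levels are given as CPM, a gene's counts relative to the library total, scaled by TMM (edgeR's trimmed mean of M values). In CD9+ macrophages Ifitm1 was at 73.7 and 47.4 CPM in the 2 libraries of day 1, against 8.25 and 5.07 CPM on day 14. In CX3CR1+ macrophages it was at 63.6 and 57.6 CPM on day 1, against 1.57 and 3.25 CPM on day 14, which are 18 and 35 counts. Ifitm1 was thus close to the lower end of what was counted in CX3CR1+ macrophages of day 14, and no library of day 14 reached any library of day 1 of the same population.

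The F4/80- myeloid cells kept more of it. Ifitm1 was at 138 and 111 CPM there on day 1 and at 44.8 and 40.2 CPM on day 14. In neutrophils, where Ifitm1 had its highest level, it was at 377 and 313 CPM on day 1 and at 54.7 and 53.8 CPM on day 14. The log2 difference of day 14 from day 1 was -3.18 ± 0.27 (SE) in CD9+ macrophages, -4.66 ± 0.31 in CX3CR1+ macrophages, -1.55 ± 0.23 in F4/80- myeloid cells and -2.67 ± 0.24 in neutrophils. In folds, Ifitm1 was 9.08 times lower, 25.3 times lower, 2.92 times lower and 6.36 times lower on day 14.

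Ifitm3, the member best known for restricting influenza virus, did not follow that course. In CD9+ macrophages it was at 138 and 129 CPM on day 1 and at 68.4 and 83.3 CPM on day 14. In CX3CR1+ macrophages it was at 230.5 and 219 CPM on day 1 and at 322 and 354 CPM on day 14, so both libraries of day 14 lay above both of day 1. In F4/80- myeloid cells it was at 152 and 125 CPM on day 1 and at 84.4 and 70.7 CPM on day 14.

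Neutrophils were the population in which the 2 days overlapped for Ifitm3, at 331 and 205 CPM on day 1 and 238 and 229 CPM on day 14. The log2 difference of day 14 from day 1 was -0.82 ± 0.19 in CD9+ macrophages, 0.59 ± 0.18 in CX3CR1+ macrophages, -0.84 ± 0.19 in F4/80- myeloid cells and -0.20 ± 0.18 in neutrophils. Without the first neutrophil library of day 1 the neutrophil difference was 0.19, so its sign rests on that library. Other markers of the CD9+ libraries also changed between the days. Their 5 eosinophil markers summed to 504.8 and 568.2 CPM on day 1 and to 5861 and 9448 CPM on day 14. Of these, Siglecf went from 25.5 and 16.8 CPM to 43.0 and 59.4 CPM. Ccr3 went from 33.6 and 16.6 CPM to 39.9 and 36.6 CPM. The 7 macrophage markers summed to 3265 and 3668 CPM on day 1 and to 1657 and 2690 CPM on day 14. In CX3CR1+ macrophages these 7 fell as well, from 3410 and 3127 CPM to 1872 and 1984 CPM. Among them, in CD9+ libraries, Adgre1 went from 120 and 159 CPM to 145 and 217 CPM. Csf1r went from 577 and 940 CPM to 374 and 520 CPM. The part of these markers in the CD9+ differences of Ifitm1 and Ifitm3 was not tested. In bulk libraries, fewer cells of a type and less RNA per cell cannot be told apart, which holds for every level given here.

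**Figure D1:**
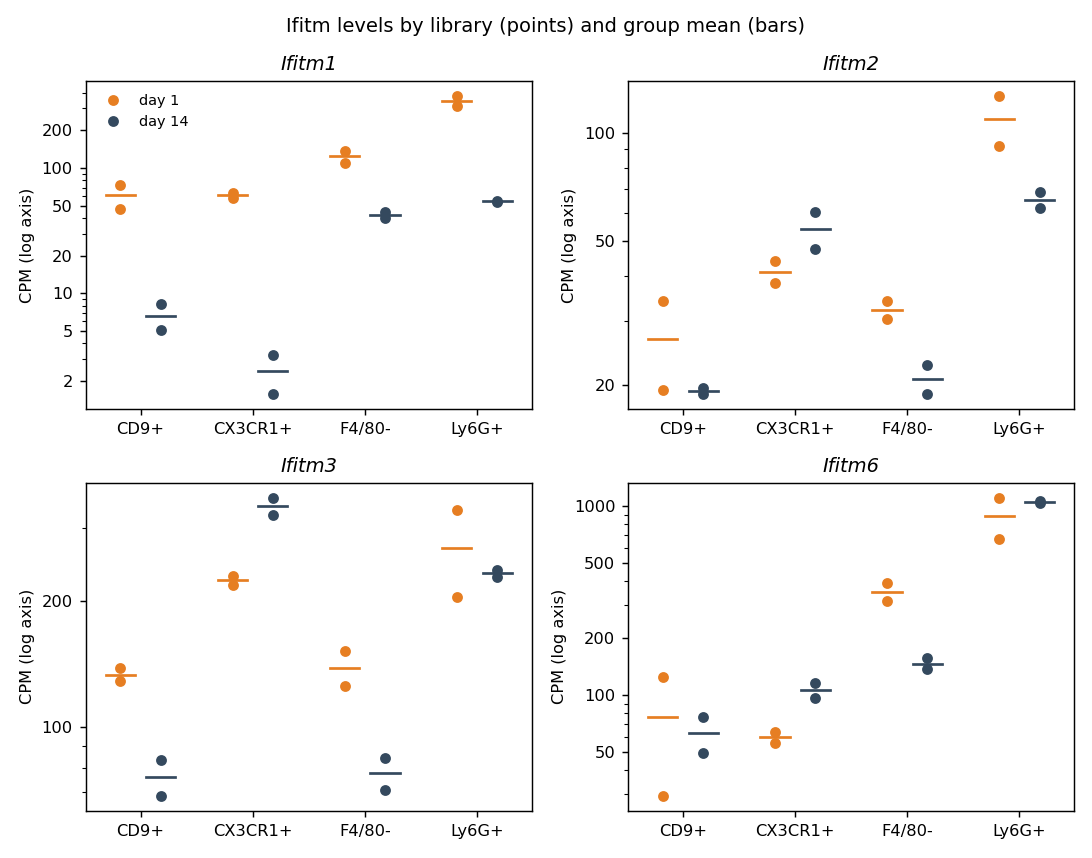
Levels of Ifitm1, Ifitm2, Ifitm3 and Ifitm6 in CPM (log axis) by sorted population, with day 1 in orange and day 14 in dark blue; points are libraries and bars the mean of the 2 libraries. Ifitm1 is lower on day 14 in each population, at 1.57 and 3.25 CPM in CX3CR1+ macrophages, where Ifitm3 lies at 322 and 354 CPM.

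The opposite course of Ifitm1 and Ifitm3 lay in comparisons with CX3CR1+ macrophages. Of 16 comparisons between days or between populations, 6 had Ifitm1 and Ifitm3 on opposite sides of 0, and CX3CR1+ macrophages took part in all 6 of them and in 7 of the 16 comparisons. In 5 of the 6 the libraries of the groups overlapped for neither gene. Under the other settings tried, 5 to 7 of the 16 comparisons had opposite signs, and with libraries scaled by their totals 6 of 7 included CX3CR1+ macrophages. These counts describe the pattern by which the genes were chosen.

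On day 1 the log2 difference of CD9+ from CX3CR1+ macrophages in Ifitm1 was 0.0042 ± 0.23, ranging from -0.36 to 0.28 when 1 library was left out, and Ifitm3 was lower in CD9+ macrophages, at -0.75 ± 0.19. By day 14 the differences were 1.48 ± 0.35 for Ifitm1 and -2.16 ± 0.19 for Ifitm3. Against F4/80- myeloid cells of day 14, CX3CR1+ macrophages differed by -4.15 ± 0.31 in Ifitm1 and by 2.12 ± 0.19 in Ifitm3. Against neutrophils of day 14 the differences were -4.50 ± 0.31 and 0.53 ± 0.18. The Ifitm1 difference between CD9+ and CX3CR1+ macrophages of day 14 rested on 86, 50, 18 and 35 counts and ranged from 1.04 to 2.07 when 1 library was left out.

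The ratio of Ifitm1 to Ifitm3 counts within a library does not depend on scaling between libraries. The mean log2 ratio in CX3CR1+ macrophages was -1.89 ± 0.049 (SD, n = 2) on day 1 and -7.22 ± 0.64 on day 14. There were 205 and 109 counts of Ifitm3 per count of Ifitm1 in the 2 libraries of day 14, against 3.626 and 3.804 on day 1. In CD9+ macrophages the mean log2 ratio was -1.17 ± 0.38 on day 1 and -3.55 ± 0.70 on day 14.

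F4/80- myeloid cells shifted least. Their mean log2 ratio was -0.16 ± 0.022 on day 1 and -0.87 ± 0.070 on day 14. Neutrophils of day 1 were the one group with more Ifitm1 than Ifitm3 counts in both libraries, at 0.40 ± 0.30, and stood at -2.11 ± 0.021 on day 14. The mean log2 ratio changed by -2.37 in CD9+ macrophages, -5.33 in CX3CR1+ macrophages, -0.70 in F4/80- myeloid cells and -2.51 in neutrophils, and the days did not overlap in any population.

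**Figure D2:**
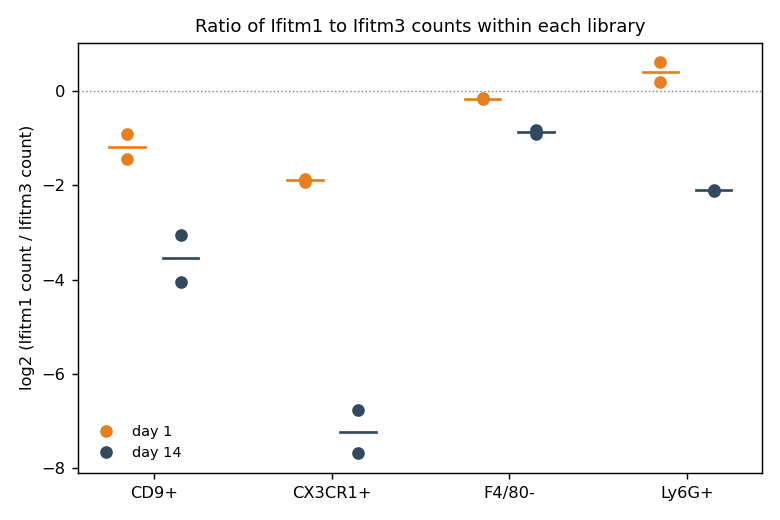
Log2 ratio of Ifitm1 to Ifitm3 counts within each library, by population, with day 1 in orange and day 14 in dark blue; points are libraries, bars are means of 2, and the dotted line marks equal counts. In CX3CR1+ macrophages the mean is -1.89 on day 1 and -7.22 on day 14, in F4/80- myeloid cells -0.16 and -0.87.

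Ifitm2, which like Ifitm3 acts in endosomes, was measured at lower counts. In CX3CR1+ macrophages it was at 38.3 and 44.2 CPM on day 1 and at 47.7 and 60.2 CPM on day 14. In CD9+ macrophages it was at 34.3 and 19.4 CPM on day 1 and at 19.6 and 18.9 CPM on day 14. The CX3CR1+ libraries did not overlap between the days, whereas the CD9+ libraries did.

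In F4/80- myeloid cells Ifitm2 was at 34.1 and 30.5 CPM on day 1 and at 18.9 and 22.8 CPM on day 14. In neutrophils it was highest, at 126 and 91.7 CPM on day 1 and at 61.8 and 68.5 CPM on day 14. Calls came from the quasi-likelihood test of edgeR, adjusted by Benjamini-Hochberg over all tested genes: the adjusted p had to be below 0.05 and the log2 fold change at least 1 in size. Ifitm2 was called between the days in 0 of 4 populations: the log2 fold change was -0.74 ± 0.22 in neutrophils (adjusted p = 0.0223), -0.63 ± 0.23 in F4/80- myeloid cells (adjusted p = 0.126), 0.39 ± 0.22 in CX3CR1+ macrophages (adjusted p = 0.298) and -0.49 ± 0.24 in CD9+ macrophages (adjusted p = 0.169). The neutrophil difference passed the p threshold and missed that on size.

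Ifitm6 was above all a neutrophil transcript. It was at 1106 and 666 CPM in neutrophils on day 1 and at 1032 and 1062 CPM on day 14. F4/80- myeloid cells followed, with 389 and 313 CPM on day 1 and 137 and 157 CPM on day 14. CX3CR1+ macrophages had 55.7 and 63.6 CPM on day 1 and 97.0 and 116 CPM on day 14.

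In CD9+ macrophages Ifitm6 was at 125 and 29.3 CPM on day 1 and at 76.1 and 49.4 CPM on day 14, so the first day 1 library lay above both of day 14 and the second below both. These libraries also differed in the summed level of 9 neutrophil markers, at 11970 and 3771 CPM on day 1 and between 8915 and 13470 CPM on day 14, against 458.9 to 554.1 CPM in CX3CR1+ macrophages. The defining neutrophil gene Cxcr2 was at 8.31 to 43.2 CPM in the CD9+ libraries, against 941 to 1870 CPM in neutrophils. Ly6g was at 0.106 to 4.99 CPM against 81.7 to 286 CPM. A further defining gene, Csf3r, was lower in CD9+ than in CX3CR1+ macrophages, at 91.3 to 156 CPM against 210 to 238 CPM. In neutrophils Csf3r was at 2370 to 3810 CPM. The part of neutrophil transcripts in the Ifitm6 levels of CD9+ macrophages was not tested.

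Ifitm6 was called between the days in 0 of 4 populations by the same edgeR test. The log2 fold change was -1.26 ± 0.42 in F4/80- myeloid cells (adjusted p = 0.097), 0.84 ± 0.42 in CX3CR1+ macrophages (adjusted p = 0.229), -0.30 ± 0.43 in CD9+ macrophages (adjusted p = 0.668) and 0.24 ± 0.41 in neutrophils (adjusted p = 0.705). The estimate in CD9+ macrophages turned to 1.10 (adjusted p = 0.0125) without the first library of day 1. The F4/80- difference of -1.26 was called with the replicate number as a block (adjusted p = 0.0496) and without the first or the second CD9+ library of day 1 (adjusted p = 0.00167 and 0.00166).

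Over all tested genes, 4.75% were called higher and 3.48% lower on day 14 in CD9+ macrophages, 2.39% and 3.47% in CX3CR1+ macrophages, 1.01% and 2.24% in F4/80- myeloid cells, and 3.15% and 10.9% in neutrophils. With 2 libraries per group, an exact permutation test of a single gene cannot go below a two-sided p of 0.333, so the calls rest on the spread shared across genes and groups.

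**Figure D3:**
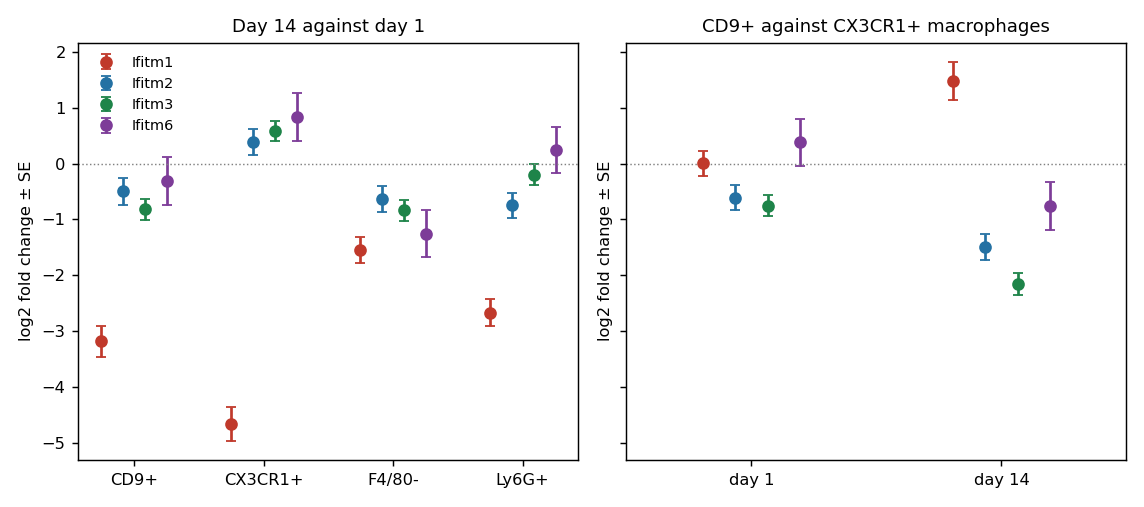
Log2 fold change with its standard error of Ifitm1 (red), Ifitm2 (blue), Ifitm3 (green) and Ifitm6 (purple), for day 14 against day 1 in each population (left) and for CD9+ against CX3CR1+ macrophages on each day (right). In CX3CR1+ macrophages Ifitm1 lies at -4.66 while the other genes lie between 0.39 and 0.84.

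Between populations Ifitm2 separated CX3CR1+ macrophages from the other non-neutrophil cells on day 14. It was lower in CD9+ than in CX3CR1+ macrophages by a log2 fold change of -1.49 ± 0.24 (edgeR adjusted p = 0.000225) and higher in CX3CR1+ macrophages than in F4/80- myeloid cells by 1.37 ± 0.23 (adjusted p = 0.000252). On day 1 the corresponding values were -0.61 ± 0.23 (adjusted p = 0.0867) and 0.35 ± 0.22 (adjusted p = 0.244), which were not called. CD9+ macrophages and F4/80- myeloid cells differed by -0.12 ± 0.24 on day 14 (adjusted p = 0.832), which was not detectable at this replication.

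Against neutrophils Ifitm2 was lower in 5 of 6 comparisons, by log2 fold changes of -1.40 to -2.01. The smallest of these, in CX3CR1+ macrophages of day 1, was -0.83 and not called when libraries were scaled by their totals alone. The exception was CX3CR1+ macrophages of day 14, at -0.27 ± 0.23 (edgeR adjusted p = 0.297), whose sign turned to 0.24 under that scaling. Ifitm6 was lower than in neutrophils in 6 of 6 comparisons, by -1.34 ± 0.42 in F4/80- myeloid cells of day 1 (adjusted p = 0.0106) to -4.06 ± 0.47 in CD9+ macrophages of day 14 (adjusted p = 2.14e-06). The smallest Ifitm6 difference was not called without the first neutrophil library (-0.92, adjusted p = 0.113) or the second F4/80- library (-1.13, adjusted p = 0.0966) of day 1, nor with libraries scaled by their totals (-0.72, adjusted p = 0.155). Scaling by totals moved the median of all genes in the comparisons with neutrophils to between 0.39 and 0.62. Neutrophils differed from each other population in 48% to 51% of all tested genes, so a call there is common: 49.5%, 51% and 49% on day 1 for CD9+, CX3CR1+ and F4/80- cells, and 49.5%, 48% and 48.7% on day 14.

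Ifitm6 was also higher in F4/80- myeloid cells than in the macrophages of day 1. The log2 fold change was -2.18 ± 0.43 for CD9+ (edgeR adjusted p = 0.00166) and -2.56 ± 0.44 for CX3CR1+ macrophages (adjusted p = 0.000283) against F4/80- cells. By day 14 the edgeR differences were -1.23 ± 0.43 (adjusted p = 0.0776, but called at 0.039 with the replicate block and at 0.00112 without either CD9+ library of day 1) and -0.46 ± 0.42 (adjusted p = 0.434). F4/80- cells differed from CD9+ macrophages in 15.4% of all tested genes on day 1 and 7.7% on day 14, and from CX3CR1+ macrophages in 21.1% and 21.5%. The summed neutrophil markers were at 25570 and 22230 CPM in F4/80- cells of day 1 and at 25500 and 27950 CPM on day 14, against 458.9 to 554.1 CPM in CX3CR1+ macrophages of either day. Their sum was thus higher in F4/80- cells on both days, and single markers moved differently over time there. Cxcr2 went from 140.7 and 107 CPM on day 1 to 39.64 and 38.77 CPM on day 14. Csf3r went from 213.4 and 214.4 CPM to 145.6 and 164.5 CPM, and Ly6g from 9.659 and 6.965 CPM to 8.218 and 10.12 CPM. The part of these markers in the Ifitm6 differences between populations or days was not tested.

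Between CD9+ and CX3CR1+ macrophages Ifitm6 was called on neither day, at 0.38 ± 0.42 on day 1 (edgeR adjusted p = 0.599) and -0.76 ± 0.43 on day 14 (adjusted p = 0.218). The day 1 value was -1.03 without the first CD9+ library and 1.06 without the second, so it has no settled direction. Of all tested genes, 6.36% were higher and 1.88% lower in CD9+ macrophages on day 1, and 9.65% and 4.55% on day 14.

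Whether the change over time differed between populations was tested by interaction for Ifitm2 and Ifitm6, with an adjusted p under 0.05 as the call. Ifitm2 passed in 1 of 6 pairs: the log2 change in CX3CR1+ macrophages exceeded that in neutrophils by 1.13 ± 0.32 (edgeR adjusted p = 0.0296). The call was lost without any 1 of 10 of the 16 libraries, with values of 0.88 to 1.21 and adjusted p of 0.0501 to 0.155, and with libraries scaled by their totals (1.07, adjusted p = 0.0527). The difference from F4/80- myeloid cells was of similar size, 1.02 ± 0.32 (adjusted p = 0.2), and was not called. The difference of CD9+ from CX3CR1+ macrophages was -0.88 ± 0.33 (adjusted p = 0.182).

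Ifitm6 passed in 0 of 6 pairs by edgeR, its largest interaction being 2.10 ± 0.60 between CX3CR1+ macrophages and F4/80- cells (adjusted p = 0.134). Without the first or the second CD9+ library of day 1 that interaction was called (adjusted p = 0.00139 and 0.00138). Among all tested genes 2.84% passed for CD9+ against CX3CR1+ macrophages, 2.01% for CD9+ against F4/80-, 11.2% for CD9+ against neutrophils, 1.17% for CX3CR1+ against F4/80-, 12.3% for CX3CR1+ against neutrophils and 10.8% for F4/80- against neutrophils. For Ifitm3 the same difference of changes, given without a test, was -1.40 ± 0.26 for CD9+ against CX3CR1+ macrophages and 1.43 ± 0.26 for CX3CR1+ against F4/80- cells. For Ifitm1 it was 1.48 ± 0.42 and -3.11 ± 0.39.

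The order of levels over the 8 groups differed from gene to gene. Ifitm1 had the widest range, from a mean of 2.41 CPM in CX3CR1+ macrophages of day 14 to 345 CPM in neutrophils of day 1, a ratio of 143. It ran from neutrophils of day 1 through F4/80- cells, CX3CR1+ and CD9+ macrophages of day 1 to neutrophils, F4/80- cells, CD9+ and CX3CR1+ macrophages of day 14. Neighbours overlapped in 2 of 7 places, namely CX3CR1+ with CD9+ macrophages of day 1 and the latter with neutrophils of day 14.

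Ifitm3 had the narrowest range, from 75.9 CPM in CD9+ macrophages of day 14 to 338 CPM in CX3CR1+ macrophages of day 14, a ratio of 4.45. Neighbours overlapped in 5 of 7 places. Its levels split into 2 sets that did not overlap: CX3CR1+ macrophages and neutrophils of both days from 205 CPM upwards, and CD9+ macrophages and F4/80- cells of both days up to 152 CPM.

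Ifitm2 ranged from 19.2 CPM in CD9+ macrophages of day 14 to 109 CPM in neutrophils of day 1, a ratio of 5.68, with CX3CR1+ macrophages of both days above CD9+ macrophages and F4/80- cells of both days in every library. Neighbours overlapped in 3 of 7 places. Ifitm6 ranged from 59.6 CPM in CX3CR1+ macrophages of day 1 to 1047 CPM in neutrophils of day 14, a ratio of 17.6, and neighbours overlapped in 4 of 7 places.

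Between genes, levels were compared per kilobase of exon. Ifitm3 was the highest of the 4 in CD9+ and CX3CR1+ macrophages on both days and Ifitm6 in F4/80- cells and neutrophils on both days. In CX3CR1+ macrophages of day 14 the mean was 499 CPM per kilobase for Ifitm3, 118 for Ifitm6, 82.4 for Ifitm2 and 2.20 for Ifitm1. In neutrophils of day 1 it was 979 for Ifitm6, 395 for Ifitm3, 316 for Ifitm1 and 167 for Ifitm2. Ifitm2 was the lowest of the 4 in CD9+ macrophages of day 1, F4/80- cells of both days and neutrophils of day 1, and Ifitm1 in the other groups.

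As a share of the counts of the 4 genes in a library, Ifitm1 made up 15.0% to 24.5% in every library of day 1. On day 14 it kept 15.7% and 13.8% in F4/80- cells, and was at 4.79% and 3.24% in CD9+ macrophages, 3.94% and 3.81% in neutrophils and 0.335% and 0.608% in CX3CR1+ macrophages. The Wilson 95% intervals of the last pair were 0.212% to 0.529% and 0.438% to 0.845%, which cover counting error only. Ifitm3 held 57.0% to 68.8% in CX3CR1+ macrophages of either day, and Ifitm6 went from 57.0% and 52.2% to 74.5% and 75.1% in neutrophils. The level of Ifitm6 itself was not called there between the days (0.24 ± 0.41 on the log2 scale), while that of Ifitm1 was 6.36 times lower on day 14.

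**Figure D4:**
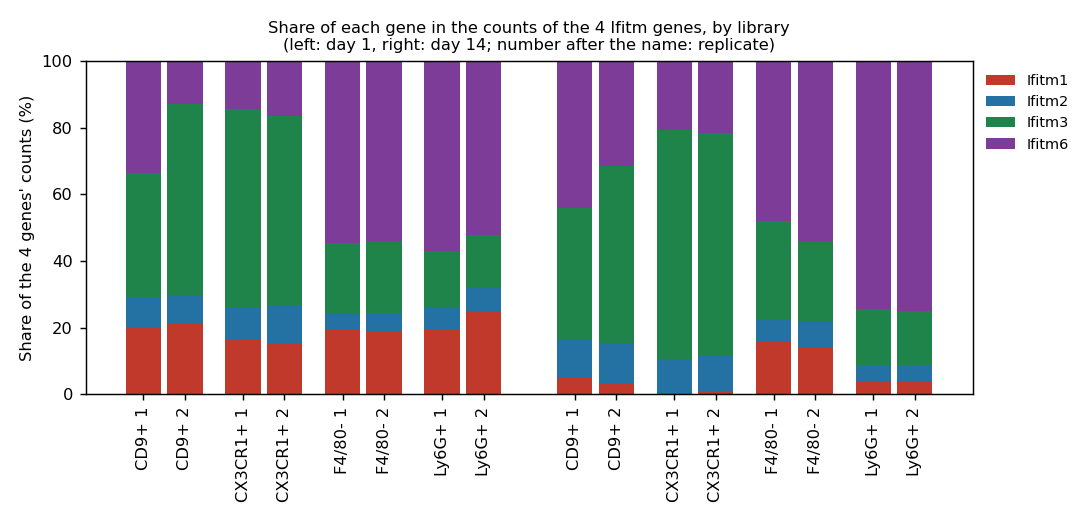
Share in percent of Ifitm1 (red), Ifitm2 (blue), Ifitm3 (green) and Ifitm6 (purple) in the counts of the 4 genes, 1 bar per library, day 1 on the left and day 14 on the right. The Ifitm1 share is 15.0% to 24.5% on day 1 and 0.335% and 0.608% in CX3CR1+ macrophages of day 14.

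Parts of these transcripts are shared with other genes. Of the 50-base stretches of each gene's transcripts in Gencode vM21, 48.5% of Ifitm2, 10.02% of Ifitm3, 5.02% of Ifitm1 and 0% of Ifitm6 also occurred in another gene's transcripts. For Ifitm2 the largest part, 36.1%, was in Gm45717, which overlaps 40.9% of its exon bases on the same strand and is not in the table used here. Ifitm2 shared 3.3% of its stretches with Ifitm3, and Ifitm1 shared 1.42% with Ifitm3. The level of Ifitm2 is therefore uncertain, and reads of one gene counted as another could not be traced in the counts.

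Across the 16 libraries the log2 CPM of Ifitm2 and Ifitm3 had a Pearson r of 0.85, Ifitm2 and Ifitm6 of 0.71, Ifitm1 and Ifitm6 of 0.54, and Ifitm1 and Ifitm3 of 0.05. These are descriptions over 8 groups of 2 libraries that share populations and days. Outside the family, the 5 genes with a pattern most like Ifitm1 were Gm7665, Gm4609, Gpr84, Gmfg-ps and Pla2g6 (r = 0.88 to 0.90). Gpr84, a receptor for medium-chain fatty acids, was at 82.0 CPM in neutrophils and 6.16 CPM in CX3CR1+ macrophages on day 1 (means), and at 17.7 and 0.758 CPM on day 14.

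Most like Ifitm3 were Gpr141, Stx7, Emb, Gm1966 and Elac1 (r = 0.91 to 0.93). Stx7, a syntaxin of late endosomes, was at 148 and 163 CPM in CX3CR1+ macrophages on day 1 and day 14 and at 106 and 91.3 CPM in CD9+ macrophages. Most like Ifitm2 were Tab2, Ep300, Cryzl1, Ccdc180 and Gm31814 (r = 0.93 to 0.95). Most like Ifitm6 were Gm26773, Scrg1, Gm45014, Ceacam1 and Styk1 (r = 0.96 to 0.98), and Ceacam1, a cell adhesion receptor of leukocytes, was at 419 and 627 CPM in neutrophils on day 1 and day 14.

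Of the other family members, Ifitm5, the bone-restricted member next to Ifitm2, did not pass the filter and had 2 to 33 counts per library. Ifitm10 lies further along chromosome 7 and was low, with a highest mean of 9.55 CPM in neutrophils of day 14. It was lower than in neutrophils in all 6 comparisons, by log2 fold changes of -2.47 ± 0.61 (edgeR adjusted p = 0.00219) to -6.17 ± 0.79 (adjusted p = 5.39e-06). Its call between the days in CX3CR1+ macrophages rested on a mean of 2 counts on day 1 and 9 on day 14.

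Within 100 kb of the cluster the table held 10 other genes, of which 9 were tested. The desmosome gene Pkp3, which was lower in neutrophils of day 14, was the 1 neighbour called between the days. In neutrophils 10.9% of all tested genes were called lower on day 14. The nearest tested genes on either side of the cluster, Pgghg and B4galnt4, were called in 0 of 4 populations by edgeR. Pgghg differed by 0.0076, 0.041, 0.15 and -0.62 in CD9+ macrophages, CX3CR1+ macrophages, F4/80- cells and neutrophils. B4galnt4, with group means of 0.12 to 3.77 CPM, differed by -0.72, 0.74, -0.0038 and -2.24 in the same order. No neighbour was called between the days in the macrophage populations.

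The genes that act on IFITM proteins were taken from a list of 9, of which 8 were tested. Nedd4, the ubiquitin ligase that marks IFITM3 for degradation, was the regulator that differed most between the macrophage populations. It was at a mean of 81.5 CPM in CD9+ and 1.89 CPM in CX3CR1+ macrophages on day 1, and at 197 and 3.40 CPM on day 14, with log2 fold changes of 5.42 ± 0.33 (edgeR adjusted p = 5.84e-08) and 5.86 ± 0.34 (adjusted p = 1.71e-08). Nedd4 was at 272 and 407 CPM in F4/80- cells and at 86.8 and 237 CPM in neutrophils on day 1 and day 14, so CX3CR1+ macrophages were the group with little of it.

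Zmpste24, a membrane protease that works with IFITM proteins, rose in neutrophils by 2.07 ± 0.21 (edgeR adjusted p = 3.16e-06) and was higher in CD9+ than in CX3CR1+ macrophages of day 14 by 1.63 ± 0.21 (adjusted p = 3.39e-05). Over time, by edgeR, 1 of the 8 regulators was called higher and 0 lower in CD9+ macrophages. The counts were 2 and 0 in neutrophils, and 0 and 0 in the other populations. Among all tested genes, 4.75% were called higher on day 14 in CD9+ macrophages and 3.15% in neutrophils.

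Interferon genes themselves were not in the table used here, so the receptors, the signalling chain and the targets stand for the pathway. Of 6 receptor genes, Ifngr1 was lower in CD9+ than in CX3CR1+ macrophages of day 1 (log2 fold change -1.09 ± 0.11, edgeR adjusted p = 8.7e-06) and Ifngr2 was lower on day 14 (-1.09 ± 0.15, adjusted p = 5.39e-05). Both encode chains of the interferon gamma receptor. Ifngr1 was at -0.99 ± 0.11 on day 14 (adjusted p = 8.17e-06), just short of the size threshold. Ifnlr1, of the lambda receptor, exceeded its CX3CR1+ level in CD9+ macrophages of day 1 by 2.23 ± 0.28 (adjusted p = 5.77e-05) and had means of 7.90 and 0.139 CPM in CD9+ and CX3CR1+ macrophages of day 14. The type I receptor genes Ifnar1 and Ifnar2 were called neither between these macrophages nor over time, though some differences passed the p threshold and missed on size. Ifnar1 was at -0.999 ± 0.17 over time in CD9+ macrophages (edgeR adjusted p = 0.001), -0.64 ± 0.16 in CX3CR1+ macrophages (adjusted p = 0.0189) and -0.91 ± 0.17 in neutrophils (adjusted p = 0.000867), and Ifnar2 at -0.86 ± 0.16 in CD9+ against CX3CR1+ macrophages of day 14 (adjusted p = 0.00103). Over time, 1 of the 6 receptors was lower in CX3CR1+ macrophages (Ifnlr1) and 1 in neutrophils. By edgeR 0 were called in the other populations. The share of all tested genes called lower on day 14 was 3.47% in CX3CR1+ macrophages and 10.9% in neutrophils.

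Of 13 signalling genes 5 were lower in CD9+ than in CX3CR1+ macrophages of day 14 and 0 were higher. They were Irf9 and Stat2, which form the factor that type I interferon activates, at -1.25 ± 0.19 and -1.23 ± 0.23, together with Irf7, Irf8 and the feedback protease gene Usp18. On day 1 the count was 0 and 0 by edgeR. Among all tested genes, 1.88% were lower and 6.36% higher in CD9+ macrophages on day 1, and 4.55% and 9.65% on day 14. Socs3, a feedback inhibitor, was the 1 signalling gene called over time in each of CD9+ macrophages (-2.43 ± 0.26), CX3CR1+ macrophages (-2.82 ± 0.27) and F4/80- cells (-3.57 ± 0.29). It was lower on day 14 in all of them, and in neutrophils Jak2, Irf8 and Socs3 were lower. The share of all tested genes called lower on day 14 was 10.9% in neutrophils and 2.24% to 3.48% in the other populations.

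The interferon targets were a list of 35 antiviral and related genes without the Ifitm members, of which 34 were tested. In CD9+ against CX3CR1+ macrophages of day 14, 18 of 34 (52.9%) were called lower and 0 higher in CD9+ macrophages, against 4.55% and 9.65% of all tested genes. The median log2 fold change was -1.16, that of all tested genes was 0.0065, and 33 of the 34 lay below 0. The count was 12 without the first CD9+ library of day 14, and 16 to 22 without any other library. Mx2, an antiviral GTPase, was the lowest at -2.97 ± 0.59 (edgeR adjusted p = 0.00145), followed by Xaf1 at -2.28 ± 0.46 (adjusted p = 0.00169).

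Beside those values, Ifitm2, Ifitm3 and Ifitm6 were at -1.49, -2.16 and -0.76, and Ifitm1 was at 1.48. The CD9+ libraries of day 14 also carried 5 eosinophil markers at a summed 5861 and 9448 CPM, against 43.7 to 76.4 CPM in CX3CR1+ macrophages of that day. Over both days the eosinophil genes Siglecf and Ccr3 were at 16.8 to 59.4 CPM and 16.6 to 39.9 CPM in CD9+ libraries and at most 2.25 and 0.835 CPM in CX3CR1+ libraries, and macrophage markers summed to 1657 to 2690 CPM in CD9+ and 1872 to 1984 CPM in CX3CR1+ macrophages of day 14. Neutrophil markers, given above, were also higher in sum in these CD9+ libraries. Of the defining ones, Cxcr2 and Ly6g were higher there. Csf3r was lower, at 120.7 and 91.34 CPM against 232.4 and 238.2 CPM in CX3CR1+ macrophages of day 14. The part of these markers in the differences was not tested.

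On day 1, 3 of the 34 targets were lower and 0 higher in CD9+ macrophages, the median being -0.44, and the count went from 0 to 7 when 1 library was left out: it was 0 without the second CD9+ or the first CX3CR1+ library and 7 without the first CD9+ library. Over time, 2 targets were called higher and 0 lower in CX3CR1+ macrophages, namely Cmpk2, a mitochondrial nucleotide kinase, at 1.21 ± 0.21 (edgeR adjusted p = 0.00148) and Ifit2 at 1.11 ± 0.31 (adjusted p = 0.0294), and 29 of 34 lay above 0, with a median of 0.26. In CD9+ macrophages 1 was higher and 5 were lower (median -0.37), in F4/80- cells 0 and 1 (median -0.12), and in neutrophils 0 and 6 (median -0.60). Called higher and lower among all tested genes were 4.75% and 3.48% in CD9+ and 2.39% and 3.47% in CX3CR1+ macrophages. These shares were 1.01% and 2.24% in F4/80- cells and 3.15% and 10.9% in neutrophils. In CD9+ against CX3CR1+ macrophages of day 1, 1.88% of all tested genes were lower and 6.36% higher. The summed eosinophil and macrophage markers of the CD9+ libraries also moved between the days, as given above. Their part in the CD9+ count was not tested.

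The neutrophil count of lower targets was 0 without the second library of day 14, 3 without the first of day 14 and 1 without the first of day 1. The CD9+ count of lower targets was 1 without the first library of day 14, 3 without the first of day 1 and 9 without the second of either day. Each CX3CR1+ library left out brought the count of higher targets there to 1. Ifitm1 lay below every one of the 34 targets in CD9+ macrophages, CX3CR1+ macrophages and neutrophils over time, whereas Ifitm2, Ifitm3 and Ifitm6 lay within the range of the targets in all 4 populations. Of 12 tested interferon gamma targets, 1 was called higher and 2 lower on day 14 in CD9+ macrophages by edgeR. The counts were 1 and 1 in CX3CR1+ macrophages, 0 and 1 in F4/80- cells and 0 and 6 in neutrophils. In CD9+ against CX3CR1+ macrophages 2 were higher and 1 lower on day 1, and 0 and 2 on day 14. Higher and lower on day 14 among all tested genes were 4.75% and 3.48% in CD9+ and 2.39% and 3.47% in CX3CR1+ macrophages. The shares were 1.01% and 2.24% in F4/80- cells and 3.15% and 10.9% in neutrophils. For CD9+ against CX3CR1+ macrophages they were 6.36% and 1.88% on day 1, and 9.65% and 4.55% on day 14. Among them, Nos2, the inducible nitric oxide synthase, was on the same side as Ifitm1: it had 7314 and 7703 counts in neutrophils of day 1 and 0 and 2 on day 14, and 296 and 523 counts in CX3CR1+ macrophages of day 1 and 1 and 4 on day 14. Cxcl9, a chemokine, had 0 counts in both CD9+ libraries of day 1 and 105 and 60 on day 14.

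**Figure D5:**
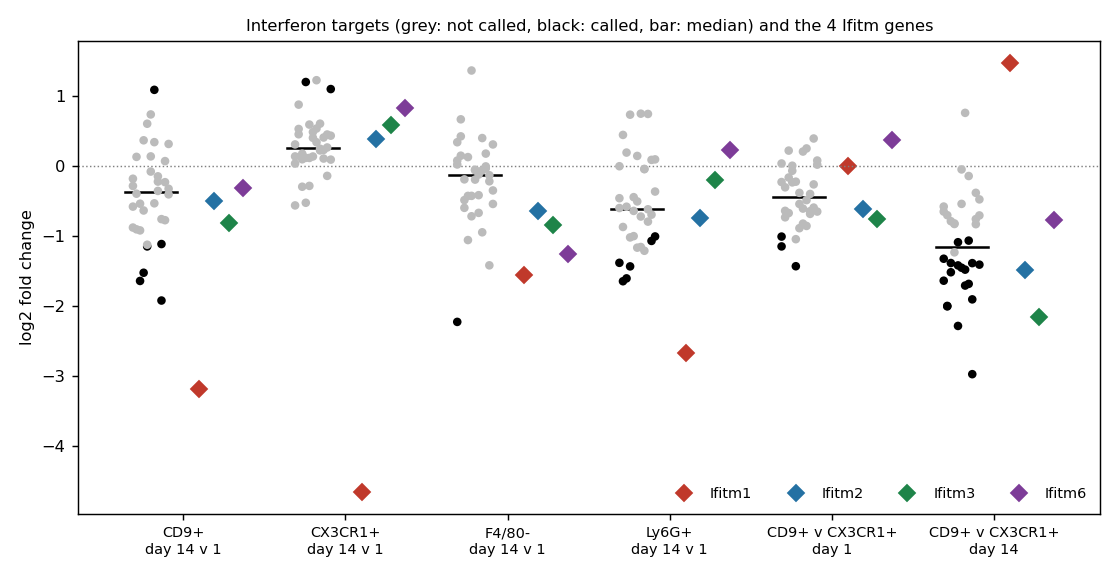
Log2 fold change of 34 interferon targets (grey points not called, black points called, bar the median) and of the 4 Ifitm genes (diamonds) in 6 comparisons. In CD9+ against CX3CR1+ macrophages of day 14 the targets have a median of -1.16, Ifitm2, Ifitm3 and Ifitm6 lie at -1.49, -2.16 and -0.76, and Ifitm1 lies at 1.48.

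The sorted populations carried their own defining markers. The F4/80 gene Adgre1 was at 120 to 217 CPM in the macrophage libraries and at 8.43 to 13.8 CPM in F4/80- cells, Cd9 was at 142 to 184 CPM in CD9+ and 6.50 to 21.1 CPM in CX3CR1+ macrophages, and Ly6g was at 81.7 to 286 CPM in neutrophils. Cx3cr1 was at 133 to 293 CPM in CX3CR1+ and at 73.0 to 108 CPM in CD9+ macrophages, so the latter also held much of it. Cd9 was also high in neutrophils, at 346 to 678 CPM, and at 107 to 121 CPM in F4/80- cells. F4/80- cells held basophil and mast cell markers at 500 to 868.9 CPM summed over 5 genes, against 51.5 to 86.0 CPM on day 1 and 131.8 to 156.6 CPM on day 14 in CD9+ macrophages and at most 0.928 CPM in CX3CR1+ macrophages. The T, NK, B, dendritic and stromal cell lists reached at most 80.7 CPM in any library.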

How the data were processed

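Bulk RNA-seq libraries were prepared by the authors from sorted cells with the SMART-Seq Stranded kit, trimmed with Cutadapt and aligned to mm10 with STAR, and reads in Gencode exons were counted. The submitters' processing notes name STAR and edgeR. The deposited table holds raw counts of 20200 genes in 16 libraries, and all of its count columns were mapped to samples (0 unmapped). The filter behind the table (smallest gene total 17) and the strand setting of the counting are not given in the sources used here.

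Genes with a mean of at least 3 CPM in at least 1 group were kept (11998). edgeR 4.0.16 in R 4.3.3 (with limma 3.58.1 loaded) scaled the kept counts by TMM. It fitted 1 quasi-likelihood model over the 8 groups, which left 8 residual degrees of freedom, and tested the contrasts. A call required p below 0.05 after Benjamini-Hochberg adjustment together with a log2 fold change of 1 or more in size, and interactions the adjusted p alone. The fit was tested on simulated data. Alternatives were scaling by library totals, upper quartile scaling, DESeq2 size factors, DESeq2 1.42.0, no filter, filterByExpr, a replicate block within each day and leaving out each library. The libraries of a group are taken as separate pools of mice, so p-values measure the spread between pools within a group. Populations of a day shared pools, so the main fit left out any pairing by pool in comparisons between populations. No source used here ties replicate numbers to pools.

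The 4 genes and all gene lists were chosen with earlier results of these data known. Named were the 4 members, their relatives, genes within 100 kb, and receptor and signalling genes. For each member the 5 genes outside the family with the highest Pearson correlation of log2 CPM were named. For each comparison the 2 called genes with the largest and the 2 with the smallest fold change were named, over the interferon and regulator lists together. Ifit2 was named to complete a short count after its values were seen. CPM per kilobase used the exon length of Gencode vM21, and promoter windows came from RefSeq (GRCm38.p6). Depth limits low levels: intervals of shares are Wilson 95% intervals for counting error only.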

Additional observations from a re-analysis of the deposited data

Results flagged for a closer look

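The change of Ifitm2 between day 1 and day 14 differed between CX3CR1+ macrophages and neutrophils, with an interaction of 1.13 on the log2 scale (edgeR adjusted p = 0.0296), a call that was lost without any 1 of 10 of the 16 libraries (adjusted p of 0.0501 to 0.155) and under scaling by totals (0.0527). Of all tested genes, 12.3% passed this interaction. The difference of changes in Ifitm3 was -1.40 between CD9+ and CX3CR1+ macrophages, as every library of day 14 lay below every library of day 1 in CD9+ macrophages and above in CX3CR1+ macrophages. It was 1.43 between CX3CR1+ macrophages and F4/80- myeloid cells, for the same reason. The Ifitm3 differences were not tested, since the gene was chosen on these values.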

How the results depend on the processing

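Of the values of Ifitm2 and Ifitm6 recomputed under the 7 other settings, 303 kept their direction and their side of the threshold, 2 gained a call and 3 lost one, and when 1 library was left out these numbers were 674, 16 and 12, with 2 turned. Scaling by library totals lost Ifitm2 in CX3CR1+ macrophages against neutrophils of day 1 (-0.83), its interaction between these populations (1.07, edgeR adjusted p = 0.0527) and Ifitm6 in F4/80- cells against neutrophils of day 1 (-0.72). It gave 1 lower interferon target over time in CD9+ macrophages and 5 in CD9+ against CX3CR1+ macrophages of day 1. It also turned Ifitm3 in CX3CR1+ macrophages against neutrophils of day 1 to 0.32 and Ifitm1 in F4/80- cells against neutrophils of day 14 to 0.21.

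Same-numbered libraries of a day may come from 1 pool of mice, which no source used here states, so the replicate number was tried as a block within each day. The correlation of their deviations over 12 pairs of groups was 0.013 to 0.14, above 0.1 in 3. With the replicate block, Ifitm6 was called over time in F4/80- cells (-1.26, edgeR adjusted p = 0.0496) and in CD9+ macrophages against F4/80- cells of day 14 (-1.23, adjusted p = 0.039), and 1 interferon target was called higher in F4/80- cells, as it was with no filter (1) and DESeq2 (1). The block changed no other call of Ifitm2 or Ifitm6.

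When 1 library was left out, Ifitm2 ranged from -1.09 to -0.27 in CD9+ against CX3CR1+ macrophages of day 1, and its interactions from -1.22 to -0.40 for these populations, 0.84 to 1.16 for CX3CR1+ against F4/80- cells and 0.88 to 1.35 for CX3CR1+ against neutrophils. Ifitm6 ranged from -0.98 to 1.10 over time in CD9+ macrophages, -1.39 to -1.08 over time in F4/80- cells, -1.03 to 1.06 in CD9+ against CX3CR1+ macrophages of day 1, -1.66 to -0.92 in F4/80- cells against neutrophils of day 1 and -1.59 to -0.97 in CD9+ against F4/80- cells of day 14. Its interactions ranged from -1.82 to 0.27 (CD9+ against CX3CR1+), 0.27 to 2.36 (CD9+ against F4/80-), -1.22 to 0.86 (CD9+ against neutrophils), 1.92 to 2.23 (CX3CR1+ against F4/80-) and -1.91 to -1.18 (F4/80- against neutrophils). Interferon targets over time numbered 1 to 3 higher and 1 to 9 lower in CD9+ macrophages, 1 to 3 higher in CX3CR1+ macrophages, 0 to 1 higher in F4/80- cells, and 0 to 2 higher and 0 to 9 lower in neutrophils, and 0 to 7 were lower in CD9+ against CX3CR1+ macrophages of day 1. The cause of these changes was not tested.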
